A study of Homo sapiens with 30 samples.

Results

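The genes described here encode 10 receptor tyrosine kinases: the fibroblast growth factor receptors FGFR1, FGFR2 and FGFR3, the platelet-derived growth factor receptors PDGFRA and PDGFRB, the stem cell factor receptor KIT, the epidermal growth factor receptor EGFR, the insulin-like growth factor 1 receptor IGF1R, the hepatocyte growth factor receptor MET and the GAS6 receptor AXL. They were chosen by name from the 20367 gene symbols of the PRO-Seq table, and all 10 were listed. Peaks of ATAC-Seq and MYC ChIP-Seq at their loci were added. All samples came from G401, a malignant rhabdoid tumor line that lacks SNF5, the core SWI/SNF subunit encoded by SMARCB1. The cells had been transduced with a lentiviral TET-inducible construct for HA-tagged EGFP, OmoMYC or SNF5 and selected with G418. Every sample, the EGFP controls included, received doxycycline at 1 μg/ml and was taken after 24 h. OmoMYC is a dominant-negative form of the MYC dimerization region. PRO-Seq and ATAC-Seq had 3 samples per construct and MYC ChIP-Seq had 2. The line is 1 tumor's line, the transduced cells were used as a selected pool, and plates of 1 condition were combined for each PRO-Seq library.

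Receptor tyrosine kinases sit in the plasma membrane. Binding of a ligand brings receptor chains together, the kinase domains phosphorylate each other, and adaptor proteins recruited to the phosphotyrosines start the RAS-ERK and PI3K-AKT cascades. Feedback proteins such as the Sprouty family, the dual-specificity phosphatases and the CBL ubiquitin ligases limit the signal. Rhabdoid tumor lines are known for their use of FGF and PDGF receptors, and MET and AXL are known to carry survival signals when other receptors are blocked.

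PRO-Seq maps engaged RNA polymerase by a nuclear run-on. Reads were counted in the gene body, which begins 1 kb past the start, and in the promoter-proximal region, the 50 bp window with most reads around the start. The pausing index is the density of reads in that window divided by the density in the gene body. Libraries held 28388012 to 46859674 gene body reads and 517824 to 3381190 promoter-proximal reads, and the promoter-proximal totals of the replicate 1 libraries, at most 671718, were the lowest. SMARCB1, the check of the labels, had 4, 1 and 6 gene body reads with EGFP, 2, 5 and 4 with OmoMYC, and 2870, 4467 and 3440 with SNF5.

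The replicate 3 libraries of all constructs stood apart at EGFR and MET, and this touches every result on those receptors. For EGFR, the mean of replicates 1 and 2 was 68.1-fold the replicate 3 value with EGFP, 65.9-fold with OmoMYC and 32.4-fold with SNF5. For MET, it was 163-fold, 197-fold and 105-fold. Of 15060 genes tested, 66 (0.438%) were more than 10-fold lower in replicate 3 than in each of the other replicates, in all 3 constructs. Another 24 (0.159%) were more than 10-fold higher than in each of them. A small constant was added to all normalized values for this count. No gene met either limit for replicate 1 or for replicate 2. EGFR and MET lie on chromosome 7, which held 10 of the 66 lower genes and 724 of all 15060 genes tested. In bulk libraries, fewer cells that transcribe a gene and less transcription per cell cannot be told apart. Comparisons were made within replicate numbers, and values without the replicate 3 libraries, a setting chosen after seeing the data, are given beside each member's result that passed the test with them or without them.

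The promoters of 5 members are shown because an accessible site covered them in at least 2 ATAC-Seq samples and the results below turn on them. Each window runs from 250 bases before to 50 bases after a start, as listed by RefSeq on GRCh38.p14, and is written 5′ to 3′ on the strand of the gene. Capitals mark the E-box CACGTG, the motif that MYC and MAX recognize, and TGANTCA, the AP-1 motif. Both read the same on either strand and do not overlap each other.
MET, chr7:116671946-116672245, plus strand: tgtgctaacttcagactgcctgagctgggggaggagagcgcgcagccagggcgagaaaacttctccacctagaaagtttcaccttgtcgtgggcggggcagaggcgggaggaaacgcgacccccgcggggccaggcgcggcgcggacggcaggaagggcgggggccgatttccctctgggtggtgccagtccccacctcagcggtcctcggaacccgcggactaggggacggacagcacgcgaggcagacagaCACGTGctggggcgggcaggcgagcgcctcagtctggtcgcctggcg
EGFR, chr7:55018767-55019066, plus strand: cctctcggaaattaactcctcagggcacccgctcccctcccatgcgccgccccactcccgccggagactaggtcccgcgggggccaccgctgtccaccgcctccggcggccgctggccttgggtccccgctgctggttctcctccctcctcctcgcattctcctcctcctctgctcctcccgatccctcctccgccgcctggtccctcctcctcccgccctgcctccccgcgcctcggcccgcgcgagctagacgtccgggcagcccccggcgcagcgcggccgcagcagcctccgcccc
AXL, chr19:41218973-41219272, plus strand: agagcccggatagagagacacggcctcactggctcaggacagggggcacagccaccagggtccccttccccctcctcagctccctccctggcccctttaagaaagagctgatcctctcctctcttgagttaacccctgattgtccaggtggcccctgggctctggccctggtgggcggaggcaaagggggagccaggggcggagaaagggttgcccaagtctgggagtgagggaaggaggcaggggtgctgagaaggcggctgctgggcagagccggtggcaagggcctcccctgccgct
FGFR2, chr10:121598395-121598694, minus strand: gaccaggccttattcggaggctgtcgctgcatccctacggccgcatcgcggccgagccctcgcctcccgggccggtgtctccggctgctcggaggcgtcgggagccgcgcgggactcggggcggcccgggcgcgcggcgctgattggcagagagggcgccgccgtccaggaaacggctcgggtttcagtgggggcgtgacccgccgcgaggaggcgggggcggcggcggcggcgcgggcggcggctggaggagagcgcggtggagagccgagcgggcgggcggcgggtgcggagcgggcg
IGF1R, chr15:98648289-98648588, plus strand: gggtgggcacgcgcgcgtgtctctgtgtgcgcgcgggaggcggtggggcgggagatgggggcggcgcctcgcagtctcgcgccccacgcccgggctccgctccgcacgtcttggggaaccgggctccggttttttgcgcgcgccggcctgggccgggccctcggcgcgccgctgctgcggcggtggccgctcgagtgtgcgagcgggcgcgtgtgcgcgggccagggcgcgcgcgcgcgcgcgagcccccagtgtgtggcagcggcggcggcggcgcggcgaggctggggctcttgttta
Of 16 windows listed for 9 members, 1 held CACGTG and 2 held TGANTCA. The share over all 35116 windows was 7.26% for CACGTG and 7.71% for TGANTCA. The E-box lay in the MET window, with its first base at position 4 after the start counted from 1. The TGANTCA matches lay in the upstream PDGFRA window and in the downstream EGFR window, which are not shown. The IGF1R window held 55 CpG dinucleotides and the FGFR2 window 52, more than in 99.6% and 99.2% of all windows. The EGFR window held 33, the MET window 30 and the AXL window 7, against a median of 14. FGFR1 had no entry.

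The gene body densities of the members spanned several orders of magnitude. Density is given in reads per kb per 1000000 gene body reads, after scaling the libraries by the relative log expression factors, so that genes of different length can be compared. With EGFP, FGFR2 had the highest mean density, 11.45 ± 1.745 (SD, n = 3), followed by FGFR1 at 5.18 ± 1.74, IGF1R at 3.06 ± 0.980 and PDGFRB at 2.69 ± 0.415. AXL had 1.645 ± 0.483, EGFR 1.15 ± 0.981 and FGFR3 0.865 ± 0.287. MET had 0.189 ± 0.165, PDGFRA 0.174 ± 0.0266 and KIT 0.00176 ± 0.000981. In this order, the ranges of FGFR1 and IGF1R, of IGF1R and PDGFRB, of AXL and EGFR, of EGFR and FGFR3, and of MET and PDGFRA overlapped. Those of PDGFRB and AXL did not, nor did those of FGFR3 and MET. All 3 FGFR2 values lay above every FGFR1 value and all 3 KIT values lay below every PDGFRA value. Without replicate 3, EGFR would stand beside AXL and MET above PDGFRA, since their densities with EGFP in replicates 1 and 2 were 1.63 and 1.81 for EGFR and 0.254 and 0.312 for MET.

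**Figure D1:**
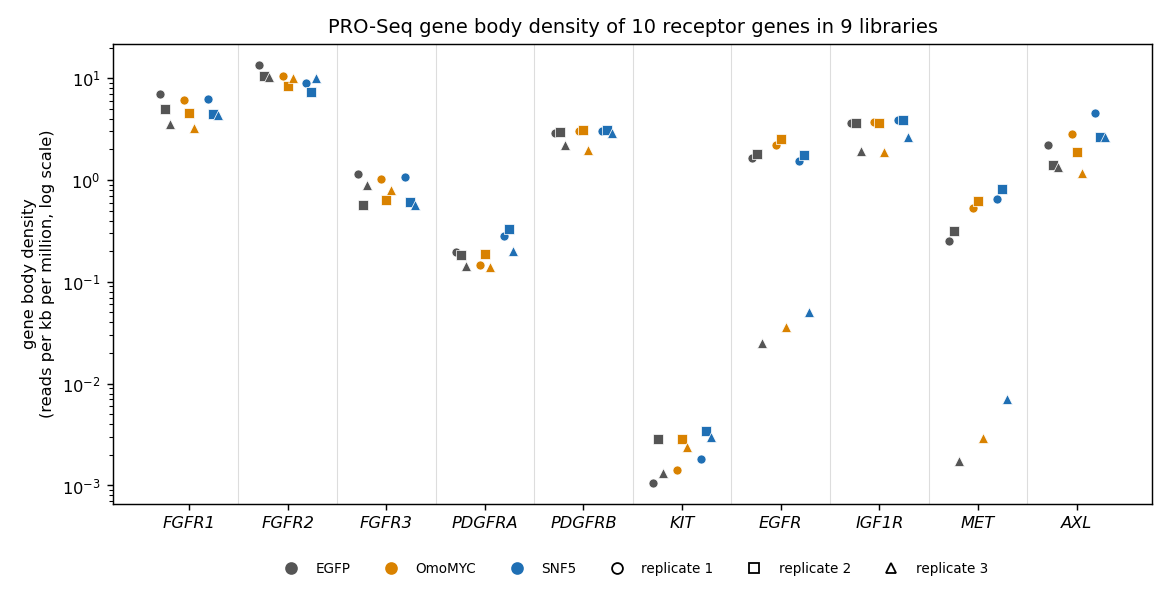
PRO-Seq gene body density in reads per kb per 1000000 scaled gene body reads (log axis) for the 10 receptor genes, with 1 point for each of the 9 libraries, color for the construct and shape for the replicate. FGFR2 lies highest and KIT lowest, and the replicate 3 points of EGFR and MET lie far below those of replicates 1 and 2 in all constructs.

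KIT, the receptor for stem cell factor (chr4:55524095-55606881 in hg19, plus strand), was close to untranscribed. Its gene body of 81783 bp held 3, 7 and 5 reads with EGFP, 4, 7 and 9 with OmoMYC, and 6, 10 and 11 with SNF5, and its promoter-proximal window held 2 reads in 1 SNF5 library and 0 in the other 8. It did not pass the filter of a mean of at least 10 reads, so tests cover 9 of the 10 members. At this depth a change in KIT was not detectable.

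The first question was how the return of SNF5 changed transcription of the receptor genes. MET, AXL and PDGFRA rose in the gene body and FGFR2 fell, so that 4 of 9 members tested were called (3 higher and 1 lower) by edgeR's quasi-likelihood test with Benjamini-Hochberg adjustment at 0.05. Over all 15060 genes, 34.4% were called, 17.3% higher and 17.1% lower. The share of members called was thus near that of all genes. Fitted without pairing the replicate numbers, 0 of 9 members and 223 of all genes were called, and 3 members had an unadjusted p under 0.05. The median log2 fold change of the 9 members was 0.20, against −0.03 over all genes.

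MET had the largest change with SNF5 of the 9 members tested. Its product, the receptor for hepatocyte growth factor, drives scattering and invasive growth. The gene lies at chr7:116312459-116438440 in hg19, the build of the PRO-Seq table, on the plus strand. Gene body density was 0.254, 0.312 and 0.00173 in the EGFP libraries 1 to 3, and 0.656, 0.818 and 0.00701 in the SNF5 libraries. The groups overlapped because of replicate 3, but within each replicate number the SNF5 value was higher, by 2.58-fold, 2.62-fold and 4.04-fold. Replicate 3 counted only 10 reads with EGFP and 39 with SNF5. The log2 fold change was 1.42 (SE 0.108, adjusted p = 6.1e-05 in edgeR), and without the replicate 3 libraries it was 1.37 (adjusted p = 2.5e-10).

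AXL rose 1.98-fold. The receptor binds GAS6 and protein S and is known for a part in drug tolerance and mesenchymal tumor states, and the gene lies at chr19:41725108-41767671 on the plus strand. Its density was 2.2, 1.4 and 1.33 with EGFP and 4.53, 2.65 and 2.64 with SNF5. All SNF5 libraries lay above all EGFP libraries, with ratios of 2.06, 1.9 and 1.98 within the replicate numbers. The fit gave a log2 fold change of 0.98 (SE 0.119, adjusted p = 0.00054 in edgeR), and 0.97 without replicate 3 (adjusted p = 2.6e-09).

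PDGFRA, the alpha receptor for platelet-derived growth factor (chr4:55095264-55164412, plus strand), rose from a low level. Density was 0.195, 0.183 and 0.144 with EGFP and 0.282, 0.331 and 0.199 with SNF5. Every SNF5 library was above every EGFP library. Its log2 fold change was 0.62 (SE 0.124, adjusted p = 0.0057 in edgeR), and the value without the replicate 3 libraries was 0.68 (adjusted p = 0.00015). Leaving out replicate 2 of every construct ended the call, at 0.52 (adjusted p = 0.098).

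FGFR2, a receptor for fibroblast growth factors in epithelia and the most densely transcribed member (chr10:123237844-123357972, minus strand), fell. Its density was 13.5, 10.5 and 10.3 with EGFP and 8.98, 7.31 and 10.1 with SNF5. The SNF5 libraries all lay below the EGFP libraries, although replicate 3 came close, with a ratio of 0.978 against 0.667 and 0.693 in replicates 1 and 2. In the fit, FGFR2 changed by −0.38 on the log2 scale (SE 0.0931, adjusted p = 0.013 in edgeR), and −0.57 without replicate 3 (adjusted p = 1.2e-09). The call was lost on leaving out the EGFP library of replicate 1 or 2 (adjusted p = 0.076 and 0.081) or the SNF5 library of replicate 1 or 2 (adjusted p = 0.066 and 0.078).

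The other 5 members tested did not pass the threshold with SNF5 in edgeR with all libraries. IGF1R (chr15:99192761-99507759, plus strand), which carries survival signals of insulin-like growth factors, had densities of 3.64, 3.6 and 1.93 with EGFP and 3.9, 3.9 and 2.64 with SNF5. Its SNF5 value was higher in 3 of 3 replicate numbers, with a log2 fold change of 0.23 (SE 0.0798, adjusted p = 0.055 in edgeR). DESeq2 called it (adjusted p = 0.034), as did edgeR with no filter on low counts (adjusted p = 0.044) and without the SNF5 library of replicate 1 (0.29, adjusted p = 0.048). It also passed without replicate 3, at 0.10 (adjusted p = 0.0027), a smaller difference. PDGFRB, the beta receptor for platelet-derived growth factor (chr5:149493402-149535422, minus strand), had a log2 fold change of 0.17 (SE 0.101, adjusted p = 0.21), with densities of 2.9, 2.97 and 2.22 with EGFP and 3.04, 3.09 and 2.88 with SNF5. FGFR3 (chr4:1795039-1810599, plus strand), a receptor that restrains bone growth, had −0.21 (SE 0.150, adjusted p = 0.3), with overlapping densities of 1.14, 0.566 and 0.892 and of 1.07, 0.614 and 0.564.

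FGFR1 and EGFR gave different answers in different replicates. FGFR1 (chr8:38268656-38326352, minus strand), a main transducer of FGF signals in mesenchymal cells, had densities of 7, 5.03 and 3.52 with EGFP and 6.27, 4.43 and 4.39 with SNF5. The ratio was 0.897 and 0.88 in replicates 1 and 2 and 1.25 in replicate 3, and the log2 fold change was −0.00 (SE 0.0967, adjusted p = 0.99 in edgeR). Without the SNF5 library of replicate 3 it was −0.16 (adjusted p = 0.02), and without all replicate 3 libraries −0.18 (adjusted p = 0.00025). EGFR (chr7:55086725-55275031, plus strand), which binds EGF and related ligands, had densities of 1.63, 1.81 and 0.0252 with EGFP and 1.52, 1.75 and 0.0506 with SNF5. The log2 fold change was 0.20 (SE 0.184, adjusted p = 0.43), and without replicate 3 it turned to −0.08 (adjusted p = 0.031). Without replicate 3, 7 of 9 members and 57.5% of all genes were called.

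The second question was whether OmoMYC, which interferes with MYC without SNF5, changed the same genes. MET was called, and it was the only member of 9 with a call, against 8.49% of all genes (3.98% called higher). MET density was 0.53, 0.624 and 0.00293 with OmoMYC, above EGFP in 3 of 3 replicate numbers, by 2.08-fold, 2-fold and 1.69-fold. The log2 fold change was 1.01 (SE 0.108, adjusted p = 0.0067 in edgeR), and 1.02 without replicate 3 (adjusted p = 2.2e-08). The call ended on leaving out the EGFP library of replicate 1 or 2 (adjusted p = 0.11 and 0.12) or the OmoMYC library of replicate 1 or 2 (adjusted p = 0.15 and 0.096).

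EGFR was higher with OmoMYC in every replicate number without passing the threshold. Its densities were 2.22, 2.52 and 0.0359, or 1.36-fold, 1.39-fold and 1.43-fold the EGFP library of the same number. Its log2 fold change was 0.46 (SE 0.181, adjusted p = 0.13 in edgeR), and 0.46 without replicate 3 (adjusted p = 1.6e-07). FGFR2 had densities of 10.4, 8.4 and 9.93 with OmoMYC, a log2 fold change of −0.26 (SE 0.0929, adjusted p = 0.1). On leaving out the EGFP library of replicate 3 alone it passed (adjusted p = 0.0055). Without replicate 3, FGFR2 passed at −0.36 (adjusted p = 2.6e-07).

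The remaining members did not pass with OmoMYC when all libraries were used. AXL had densities of 2.8, 1.87 and 1.16, up in replicates 1 and 2 and down in replicate 3, and a log2 fold change of 0.20 (SE 0.119, adjusted p = 0.3 in edgeR). It passed on leaving out the OmoMYC library of replicate 3 (0.38, adjusted p = 0.012) or all replicate 3 libraries (0.37, adjusted p = 4.2e-05). PDGFRA, at 0.145, 0.186 and 0.14, had −0.14 (SE 0.126, adjusted p = 0.48), and FGFR1, at 6.1, 4.58 and 3.26, had −0.15 (SE 0.0966, adjusted p = 0.34). Without replicate 3, FGFR1 passed at −0.17 (adjusted p = 0.00053). FGFR3, IGF1R and PDGFRB had log2 fold changes of −0.07, 0.00 and −0.01, with adjusted p-values of 0.8, 0.98 and 0.98. Without replicate 3, 5 of 9 members were called, against 45.2% of all genes.

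**Figure D2:**
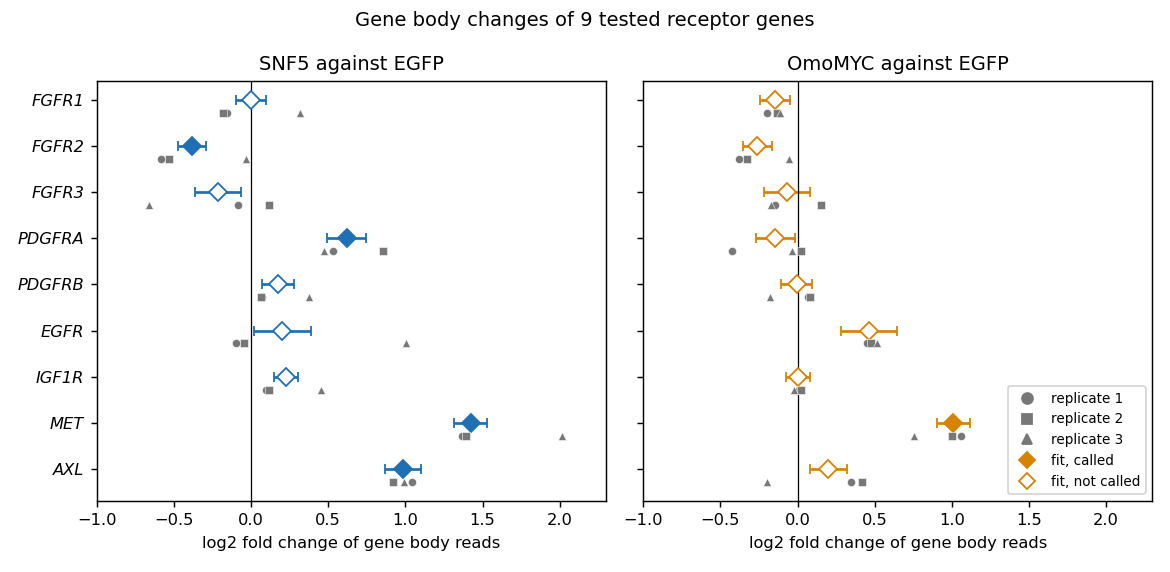
Log2 fold change of gene body reads against EGFP for the 9 tested receptors, with SNF5 (left) and OmoMYC (right). Diamonds with bars are the fit and its SE, filled where called, and gray symbols are the log2 ratios within replicates 1, 2 and 3. MET is called on both sides, AXL and PDGFRA rise and FGFR2 falls with SNF5, and the EGFR ratios with SNF5 split between replicate 3 and the others.

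Both contrasts use the same EGFP libraries, so SNF5 and OmoMYC were compared directly. AXL, PDGFRA and MET were higher with SNF5 than with OmoMYC, 3 of 9 members, against 19.0% of all genes called and 11.4% called higher. AXL had a log2 fold change of 0.79 (SE 0.119, adjusted p = 0.0024 in edgeR), PDGFRA of 0.76 (SE 0.124, adjusted p = 0.0035) and MET of 0.41 (SE 0.104, adjusted p = 0.024). The SNF5 libraries of PDGFRA all lay above the OmoMYC libraries, while those of AXL and MET overlapped and were higher in 3 of 3 replicate numbers. PDGFRA lost its call on leaving out replicate 1 or 2 of every construct (adjusted p = 0.064 and 0.055). MET lost it on leaving out the OmoMYC library of replicate 1 or 2 (adjusted p = 0.08 and 0.13) or the SNF5 library of replicate 1 or 2 (adjusted p = 0.058 and 0.094). EGFR had −0.26 (SE 0.183, adjusted p = 0.35), with ratios of 0.684 and 0.697 in replicates 1 and 2 and 1.41 in replicate 3, and it passed without the SNF5 library of replicate 3 (−0.54, adjusted p = 4.6e-05) and without all replicate 3 libraries (−0.54, adjusted p = 1.7e-08). Without replicate 3, 6 members and 42.0% of all genes were called. FGFR2 did not pass with all libraries, at −0.12 (SE 0.0928, adjusted p = 0.39). It passed without the SNF5 library of replicate 3 (−0.25, adjusted p = 0.023) and without all replicate 3 libraries (−0.21, adjusted p = 2.4e-05). IGF1R, at 0.22 with all libraries (SE 0.0798, adjusted p = 0.085), passed without replicate 3 at 0.09 (adjusted p = 0.0081). Without replicate 3, AXL had 0.60 (adjusted p = 3.7e-07), PDGFRA 0.89 (adjusted p = 2.8e-05) and MET 0.35 (adjusted p = 7.9e-05).

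Promoter-proximal reads tell whether polymerase near the start moved with polymerase in the gene. MET rose and FGFR2 fell with SNF5 at this window too, 2 of 9 members tested, against 4.3% of 11241 genes (2.62% higher and 1.67% lower). Several windows were sparse, and counts are given as deposited. MET had 5, 10 and 1 reads with EGFP and 15, 30 and 7 with SNF5, higher in 3 of 3 replicate numbers. Summed, these were 16 with EGFP, 25 with OmoMYC and 52 with SNF5. The filter of a mean of at least 10 reads was met only through the SNF5 libraries. MET thus entered the test, and the count of members called, through the group in which it was high. Its log2 fold change was 1.51 (SE 0.442, adjusted p = 0.04 in edgeR). DESeq2 gave an adjusted p of 0.13, and the call ended without the EGFP library of replicate 1, 2 or 3 (adjusted p = 0.055, 0.32 and 0.098) and without the SNF5 library of replicate 3 (adjusted p = 0.082). On leaving out the SNF5 library of replicate 1 or 2, or replicate 2 of every construct, MET fell below the count filter and was not tested. The MET call thus held in no setting that left out a single library. Without all replicate 3 libraries the log2 fold change of MET was 1.31 (adjusted p = 0.031). FGFR2 had 120, 186 and 145 reads with EGFP and 85, 98 and 104 with SNF5. Every SNF5 library lay below every EGFP library, also after scaling, with a log2 fold change of −0.79 (SE 0.215, adjusted p = 0.031 in edgeR). The FGFR2 call ended without the EGFP library of replicate 2 (adjusted p = 0.37) or the SNF5 library of replicate 1 or 2 (adjusted p = 0.076 and 0.31), and without replicate 3 the change was −0.98 (adjusted p = 0.0032).

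AXL and PDGFRA, called in the gene body, did not pass at the promoter. AXL had 8, 68 and 71 promoter-proximal reads with EGFP and 15, 82 and 91 with SNF5, a log2 fold change of 0.28 (SE 0.262, adjusted p = 0.58 in edgeR). PDGFRA had 2, 11 and 10 reads with EGFP and 3, 23 and 17 with SNF5, a log2 fold change of 0.73 (SE 0.435, adjusted p = 0.34). The other 5 members had log2 fold changes from −0.14 to 0.31 with SNF5. PDGFRA and EGFR, like MET, met the count filter only with the SNF5 libraries included. PDGFRA had 23 reads in all with EGFP, 24 with OmoMYC and 43 with SNF5, and EGFR had 28, 31 and 42. No member passed in edgeR with OmoMYC, where 1.75% of genes were called, 1 member had an unadjusted p under 0.05 and DESeq2 called 1. None passed between SNF5 and OmoMYC, where 0.836% of genes were called, 3 members had an unadjusted p under 0.05 and DESeq2 called 0.

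The pausing index changed for 1 member, FGFR1, with OmoMYC. FGFR1 had 63, 450 and 277 promoter-proximal reads with EGFP and 106, 867 and 406 with OmoMYC, and its pausing index was 5.22, 60.1 and 34.1 against 10.1, 128 and 53.6. The index was higher with OmoMYC in 3 of 3 replicate numbers, although the spread between replicates was larger than the change and the groups overlapped. The lowest index of each construct was that of replicate 1, whose libraries had the fewest promoter-proximal reads. Its log2 fold change was 0.90 (SE 0.211, adjusted p = 0.013 in edgeR), against 2.26% of 11171 genes called (2.18% higher) and a median of 0.14 over them. The promoter-proximal change was 0.76 (SE 0.214, adjusted p = 0.056), which DESeq2 called (adjusted p = 0.027), as did edgeR without the EGFP library of replicate 1 or the OmoMYC library of replicate 3 (adjusted p = 0.031 for each). Without replicate 3, the promoter-proximal change was 0.87 (adjusted p = 0.015) and the pausing change 1.03 (adjusted p = 0.002). The pausing call ended without the EGFP library of replicate 2 (adjusted p = 0.52) or the OmoMYC library of replicate 1 or 2 (adjusted p = 0.1 and 0.31). With SNF5, the FGFR1 index was 6.08, 84 and 35.9, a log2 fold change of 0.27 (SE 0.212, adjusted p = 0.53), and the direct contrast of SNF5 with OmoMYC gave −0.63 (SE 0.209, adjusted p = 0.12), so a difference between the constructs is not shown.

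In edgeR, 0 of 9 members passed for the pausing index with SNF5, against 3.66% of genes, and 0 between SNF5 and OmoMYC, against 1.23%. In each of these contrasts 1 member had an unadjusted p under 0.05, and DESeq2 called 0. AXL came nearest with SNF5, where its index was 1.64, 17.2 and 15.5 against 2.11, 32.6 and 23.1 with EGFP. It was lower in 3 of 3 replicate numbers, with a log2 fold change of −0.69 (SE 0.269, adjusted p = 0.14 in edgeR). The MET index was 11.3, 20.4 and 449 with SNF5 and 11.4, 21.6 and 250 with EGFP, a log2 fold change of 0.03 (SE 0.462, adjusted p = 0.99), with the replicate 3 values resting on 7 and 1 promoter-proximal reads.

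**Figure D3:**
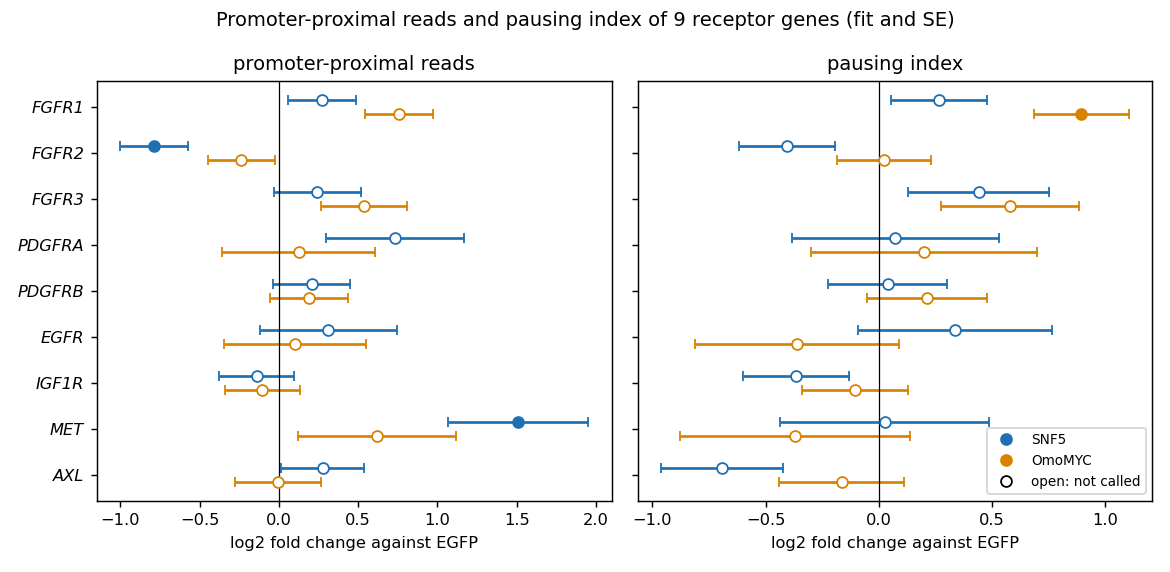
Log2 fold change against EGFP of promoter-proximal reads (left) and of the pausing index (right) for the 9 tested receptors, with SNF5 in blue and OmoMYC in orange; points are the fit, bars its SE, and filled points are called. MET and FGFR2 are called for promoter-proximal reads with SNF5, and FGFR1 for the pausing index with OmoMYC.

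Accessible chromatin at the receptor loci was read from the ATAC-Seq peaks of each sample, in hg38. Overlapping peaks from the 9 samples were joined into 40005 sites, of which 61 lay in a member gene or within 50 kb of it. The 61 comprised 14 within 1 kb of or over a listed start, 3 over other exons, 20 in introns and 24 in the flanks. A gained site is one with a peak in 3 of 3 samples of the construct and in 0 of 3 EGFP samples. With SNF5, 10 of the 61 sites (16.4%) were gained, against 9.09% of all sites, and 5 of 10 member loci held a gained site, against 19.8% of protein-coding genes. In the genes themselves, 3 members held one, against 7.61%. Members were not matched to other genes for length, and IGF1R, EGFR and MET, which hold the gained sites in genes, have the longest gene bodies here. No site was gained with OmoMYC, against 0.0275% of all sites and 0.19% of protein-coding genes (0.0551% in the gene), and none was lost with SNF5 or with OmoMYC, against 0.0075% and 0.0175%. These are counts of peaks, and no test of single sites was possible without reads.

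MET showed accessibility at its start. The site at chr7:116672141-116672542, over the first exon and the 3′ end of the window printed above, had a peak in 3 of 3 SNF5 samples, with fold enrichments of 4.03, 7.16 and 4.74 over the local background, and in 0 of 3 EGFP and 0 of 3 OmoMYC samples. The E-box of the MET window lies in this site. The adjoining upstream site at chr7:116671853-116672119 had peaks in 1 EGFP, 1 OmoMYC and 3 SNF5 samples. With OmoMYC, with which MET gene body reads were also higher, no further sample had a peak at the start.

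EGFR and IGF1R had most of the other gained sites. At EGFR, intronic sites at chr7:55065660-55066074 and chr7:55132825-55133120 had peaks in 3 SNF5 samples and in no EGFP or OmoMYC sample, and the EGFR promoter printed above lay under a peak in 2 of 3 SNF5 samples and in none of the others. The EGFR gene body did not pass the threshold with SNF5, as given above. IGF1R had 15 sites, the most of any member, of which 4 were gained. They lay in an intron 225.5 kb past the start, over an exon 248.5 kb past it, and at −28.3 and −48.2 kb from it. The intronic and the farthest upstream site also had a peak in 1 OmoMYC sample. Its promoter had a peak in 3 of 3 samples of each construct. At PDGFRB, 2 sites were gained, 1 of them at −5.9 kb from the start and the other in the neighboring CSF1R gene. At FGFR1, 1 site was gained, in the neighboring LETM2 gene.

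AXL, PDGFRA and FGFR2, the other members whose gene body reads changed with SNF5, gained no site. The AXL promoter printed above had a peak in 2 EGFP, 1 OmoMYC and 2 SNF5 samples. PDGFRA had a peak 0.7 kb from a listed start in all 9 samples, and FGFR2 one over its upstream start in 3 EGFP, 2 OmoMYC and 3 SNF5 samples. FGFR3 and KIT, the latter with a single site that had 1 OmoMYC and 1 SNF5 peak, gained none either.

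Peak numbers at the 10 loci were higher with SNF5, and so were the lengths of the whole peak lists. The loci held 20, 23 and 10 peaks in the EGFP samples, 5, 29 and 13 in the OmoMYC samples and 54, 45 and 36 in the SNF5 samples. The SNF5 samples all lay above the EGFP samples, by 27.3 peaks on average (p = 0.1 in a two-sided exact permutation test, the smallest that 3 samples against 3 can give), and OmoMYC differed by −2.0 (exact permutation p = 0.9). The whole lists held 22722 to 33596 peaks with SNF5, 9208 to 17817 with EGFP and 7260 to 23684 with OmoMYC. Per 1000 peaks, the loci had 1.63 ± 0.0569 (SD, n = 3) with SNF5 and 1.33 ± 0.257 with EGFP (exact permutation p = 0.2). With the 7260 strongest peaks of every sample, the loci held 5, 7 and 7 peaks with SNF5 and 3, 4 and 5 with EGFP, and the number of gained sites dropped from 10 to 1. The share of all sites gained with lists of equal length was not counted, so this drop is not shown to be particular to the receptor loci. The part of list length in the gained sites was not tested.

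**Figure D4:**
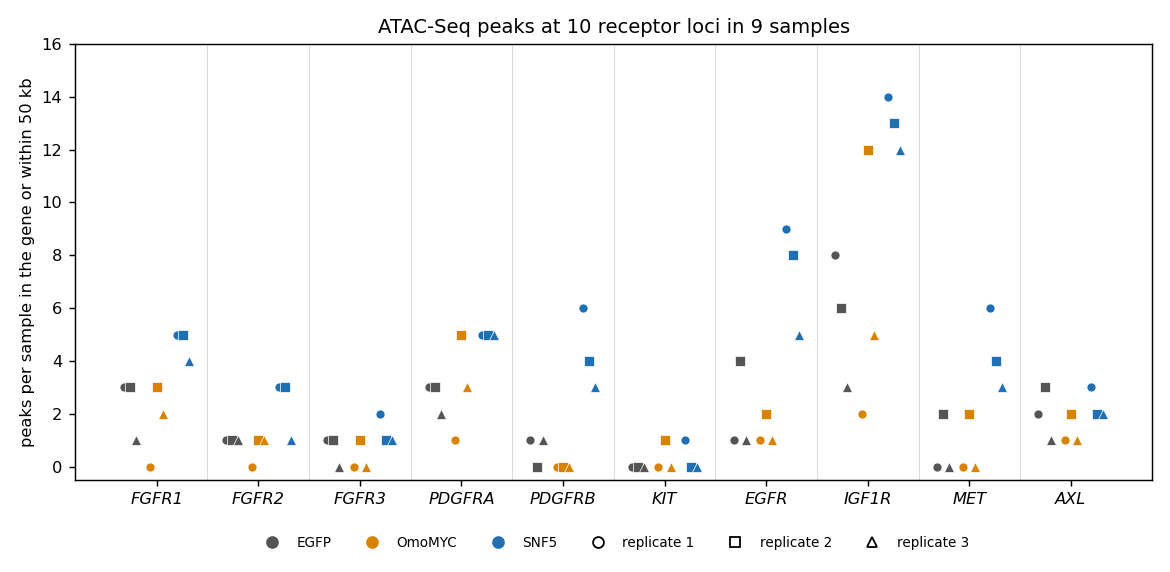
Number of ATAC-Seq peaks in each receptor gene or within 50 kb of it, with 1 point per sample, color for the construct and shape for the replicate. IGF1R has the most peaks in every sample. All SNF5 points lie above all other points at FGFR1, PDGFRB, EGFR and MET, and list lengths differ between constructs.

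MYC peaks were sought at the starts of the receptor genes. MYC ChIP-Seq peaks, in hg19, had their summit within 1 kb of a listed start for 0 of 10 members in each of 6 samples, against 4.35% of all 20367 genes in EGFP 1, 23.2% in EGFP 2 and 4.31% in both. With 10 members, a count of 0 is near the share of EGFP 1 and of both samples. The EGFP lists held 940 and 5396 peaks, the SNF5 lists 137 and 27, and the OmoMYC lists 0 beyond a placeholder line, so that an absent peak with SNF5 or OmoMYC shows little at any 1 locus. IGF1R had the only peak within 5 kb of a start, about 2 kb upstream, at −2143, −2009 and −2059 bp in EGFP 1, EGFP 2 and SNF5 1, with fold enrichments of 6.001, 9.795 and 7.37. It also had a peak in both EGFP samples 215956 and 215971 bp past the start. Flank peaks at FGFR3, PDGFRB and AXL were listed for EGFP 2 alone. Their summits lay 63073 bp past the FGFR3 start and 45103 bp past the AXL start, beyond the ends of those genes. At PDGFRB the summit lay at −8965 bp. The upstream IGF1R peak of SNF5 1, the narrowest of the 3, is printed from GRCh37 with CACGTG in capitals.
IGF1R upstream MYC peak, chr15:99190597-99190770, plus strand: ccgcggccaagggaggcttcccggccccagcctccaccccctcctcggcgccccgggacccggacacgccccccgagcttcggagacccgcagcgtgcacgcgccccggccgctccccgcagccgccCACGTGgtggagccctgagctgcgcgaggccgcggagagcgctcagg
The E-box began at base 128 of 174, 24 bp from the summit to the center of the motif. In windows of 174 bp centered on the summits, 48.5% of the peaks of EGFP 1 and 24.6% of those of EGFP 2 held CACGTG. IGF1R gene body reads with OmoMYC differed from EGFP by 0.00 on the log2 scale, as given above. The E-box of the MET promoter lay under no listed MYC peak.

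The partners of the receptors were read from lists of genes in the pathway, tested in the same fit. Counts are read against the 34.4% of all genes called with SNF5 and the 8.49% called with OmoMYC. Of 35 ligands of the 10 receptors, 19 were tested, 8 rose and 1 fell. The largest changes were those of IGF1, which binds IGF1R, of FGF1, which binds all FGF receptors, and of EGF, which binds EGFR. IGF1 rose by 4.04 on the log2 scale (SE 0.745, adjusted p = 0.0037 in edgeR), from 0.029, 0.0336 and 0.0866 to 0.694, 2.79 and 0.292 normalized reads per 1000000. These EGFP values lay below those of KIT, 0.0870, 0.235 and 0.108, which did not pass the count filter. With OmoMYC, IGF1 was no higher (log2 fold change −0.35, SE 1.235). IGF1 was thus tested only through its SNF5 reads, and the size of its change rests on a baseline near 0. FGF1 rose by 2.40 (SE 0.239, adjusted p = 0.00021), from 2.87, 5.61 and 2.66 to 13.9, 20.5 and 21.1, and EGF by 1.97 (SE 0.279, adjusted p = 0.0012), from 1.88, 4.13 and 1.49 to 11, 20.3 and 2.78. The median of the tested ligands was −0.02, near that of all genes. With OmoMYC, 1 ligand rose and 1 fell. PROS1, which encodes protein S, rose by 0.65 (SE 0.146, adjusted p = 0.034), and FGF7, a ligand of an FGFR2 isoform, fell by 1.37 (SE 0.329, adjusted p = 0.039). FGF7 was low throughout, going from 0.522, 2.66 and 0.888 to 0.261, 0.845 and 0.366 normalized reads per 1000000.

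Among 22 feedback inhibitors, 21 were tested, 6 rose and 3 fell with SNF5. CBLB, a ubiquitin ligase that marks activated receptors for removal, rose by 2.03 on the log2 scale (SE 0.0668, adjusted p = 9.3e-07 in edgeR), from 38.8, 41.3 and 26.7 to 168, 172 and 100 normalized reads per 1000000. DUSP5, a nuclear ERK phosphatase, rose by 1.13 (SE 0.180, adjusted p = 0.0021). LRIG3, of a family of receptor-binding membrane proteins, rose by 1.11 (SE 0.187, adjusted p = 0.0027), from 71.7, 79.5 and 2.95 to 141, 148 and 8.89, and is another gene low in replicate 3. With OmoMYC, 1 feedback gene rose and 2 fell. CBLB rose by 0.58 (SE 0.0659, adjusted p = 0.008), SPRY2, a Sprouty inhibitor of the RAS-ERK cascade, fell by 0.45 (adjusted p = 0.031), from 58.8, 74 and 4.42 to 44.6, 48.6 and 3.7, and ERRFI1, an inhibitor of the EGFR kinase, fell by 0.30 (adjusted p = 0.035).

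Other receptor tyrosine kinases changed in both directions with SNF5. Of 44, 40 were tested, 10 rose and 6 fell, with a median log2 fold change of 0.13. ROR1, a receptor for WNT ligands, rose by 2.56 (SE 0.338, adjusted p = 0.00083 in edgeR), FLT1, a receptor for vascular endothelial growth factor, by 1.88 (SE 0.454, adjusted p = 0.013), and NTRK2, the receptor for brain-derived neurotrophic factor, by 1.60 (SE 0.282, adjusted p = 0.0033). With OmoMYC, FLT3, a hematopoietic receptor, rose by 1.07 (adjusted p = 0.039) and EPHB4, an ephrin receptor, fell by 0.29 (adjusted p = 0.026). FLT3 was low too, going from 1.19, 1.21 and 0.39 to 2.46, 3.04 and 0.667.

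All 32 adaptors and RAS-ERK and PI3K genes were tested, and 5 rose and 5 fell with SNF5, with a median of 0.01. GAB2 and GAB1, docking adaptors downstream of several receptors, rose by 0.65 (SE 0.104, adjusted p = 0.0021 in edgeR) and 0.42 (SE 0.0706, adjusted p = 0.0028). With OmoMYC, 0 of the 32 passed in edgeR, and 8 had an unadjusted p under 0.05. DESeq2 was not read for this list. Of 18 transcriptional targets of ERK signaling, 15 were tested, 2 rose and 3 fell with SNF5. The AP-1 subunit JUN rose by 1.60 (SE 0.190, adjusted p = 5e-04), the ETS factor ETV1 rose by 0.88 (SE 0.237, adjusted p = 0.019), from 5.88, 7.19 and 57.2 to 14.8, 20.1 and 65.3 normalized reads per 1000000, and JUNB fell by 0.47 (SE 0.151, adjusted p = 0.04). With OmoMYC, 2 of these targets fell, CCND1, which encodes cyclin D1, by 0.35 (adjusted p = 0.035) and HMGA2 by 0.26 (adjusted p = 0.042).

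**Figure D5:**
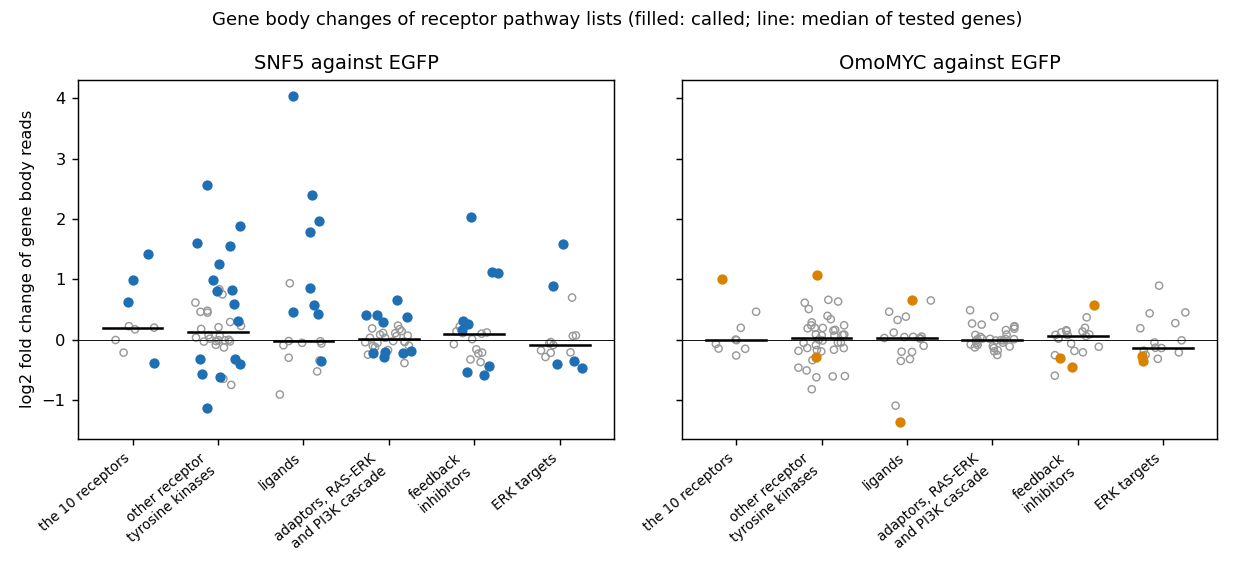
Log2 fold change of gene body reads against EGFP for the tested genes of the 10 receptors and 5 pathway lists, with SNF5 (left) and OmoMYC (right). Each point is a gene, filled where called, and the black line is the median of the tested genes of the list, which lies between −0.13 and 0.20 in every column.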

How the data were processed

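PRO-Seq was analyzed in 9 libraries, ATAC-Seq in 9 samples and MYC ChIP-Seq in 6, grouped by the construct in the labels. The IgG samples were not used. The authors trimmed PRO-Seq reads with cutadapt, reverse complemented them with the FASTX-Toolkit, aligned them to hg19 with Bowtie2 and counted them with NRSA. The deposited table gives raw read counts for the promoter-proximal region and the gene body of 20582 transcripts, and the gene body density, a signal in reads per bp. For each of 20367 gene symbols 1 transcript was kept, and 215 were left out. Peaks were called by the authors with MACS2 for each sample, at q-values of 0.01 for MYC (hg19) and 0.001 for ATAC-Seq (hg38). The deposited lists give a fold enrichment (a ratio to local background), −log10 p- and q-values and the summit, and hold no reads, so depth per site is unknown. Each OmoMYC MYC list held a single placeholder line, which was taken as 0 peaks.

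Counts with a mean of at least 10 were tested with edgeR 4.0.16 (quasi-likelihood test, R 4.3.3, limma 3.58.1) over all libraries, with construct and replicate number as terms and relative log expression factors from gene body counts, and Benjamini-Hochberg adjustment over all genes at 0.05. The authors used DESeq2 with a batch term, and DESeq2 1.42.0 was an alternative here. The pausing index was tested as the interaction of region and construct, with a term per library. Deviations from construct means correlated at 0.821 to 0.921 over 15060 genes between libraries with the same number and at −0.719 to 0.172 otherwise, so the numbers pair the libraries. The study describes the replicates as biological, and the sources used here do not say how their cultures were separated. ATAC-Seq peaks with a shared stretch of 1 bp or more were joined into sites, and loci ran from 50 kb before to 50 kb after the RefSeq gene on GRCh38.p14. Peak numbers were compared by exact permutation tests. No coordinates were converted between builds. The edgeR tests of SNF5 against EGFP were checked on simulated counts. The joining of peaks and the calls of gained and lost sites were checked on made-up peaks. The contrasts with OmoMYC, DESeq2 and the permutation tests were not checked in this way. Python 3.11.15, numpy 2.4.6, pandas 2.3.3, SciPy 1.17.1 and matplotlib 3.10.9 were used. Columns of other samples numbered 0. All members are described, and from each pathway list the called genes with the largest changes are named, up to 3 per contrast. A gene that this rule names is not reported here. The members, lists and rules were chosen with earlier results of these data known. Alternatives tried were TMM scaling, DESeq2, no count filter, the longest transcript, no replicate block, other peak thresholds and windows, and leaving out libraries.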

Additional observations from a re-analysis of the deposited data

How the results depend on the processing

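Without the replicate block, 0 members were called in the gene body (4, 1 and 3 with the block for SNF5, OmoMYC and SNF5 against OmoMYC), 0 at the promoter-proximal window with SNF5 and 0 for the pausing index with OmoMYC, and the log2 fold change with SNF5 turned to −0.058 for EGFR and with OmoMYC to 0.0081 for PDGFRB. Of all genes, that fit called 1.48%, 0.00664% and 0.498% in the gene body, and 0% in the other measures. DESeq2 called 1 member promoter-proximal with SNF5 and 1 with OmoMYC, against 2.78% and 1.24% of genes. DESeq2 and the fit with no filter on low counts each called 5 members in the gene body with SNF5, IGF1R being added, and left the other gene body counts at 1 and 3. TMM scaling and the longest transcript kept the number of members called in each comparison. Settings that leave out 1 replicate number of every construct were chosen after seeing the data. Without replicate 1, 2 or 3, gene body calls were 3, 2 and 7 with SNF5, 0, 0 and 5 with OmoMYC, and 1, 1 and 6 between the constructs. The share of all genes called moved too. It was 11.1%, 9.53% and 57.5% with SNF5, 0.0132%, 0.0134% and 45.2% with OmoMYC, and 5.39%, 4.93% and 42.0% between the constructs. Promoter-proximal calls were 1, 0 and 2 with SNF5 and 0, 0 and 1 with OmoMYC, and pausing calls with OmoMYC were 1, 0 and 1. In these settings 9, 6 and 8 members met the count filter. The all-gene shares were 8.73%, 0.427% and 5.41%, then 1.83%, 0.0273% and 7.68%, and for pausing 1.36%, 0% and 8.61%. Leaving out single libraries gave 3 to 5, 0 to 2 and 2 to 5 gene body calls, 0 to 1 promoter-proximal calls with SNF5 and with OmoMYC, and 0 to 1 pausing calls with OmoMYC. The gene body shares of all genes then ran from 17.3% to 39.8%, 0.0397% to 21.9% and 7.98% to 24.7%. Promoter-proximal shares ran from 0.461% to 11.3% with SNF5 and 0.0266% to 2.85% with OmoMYC, and pausing shares with OmoMYC from 0.00893% to 4.97%.

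Gene body values near 0 turned sign on leaving out single libraries. With SNF5, EGFR ranged from −0.068 to 0.39 and FGFR1 from −0.16 to 0.10. With OmoMYC, FGFR3 ranged from −0.18 to 0.078, IGF1R from −0.047 to 0.074 and PDGFRB from −0.076 to 0.125. Between the constructs, FGFR1 ranged from −0.012 to 0.24 and FGFR3 from −0.24 to 0.047. Without a replicate number of every construct, reversed values were −0.082 for EGFR with SNF5 (3), 0.065 and 0.0999 for FGFR1 with SNF5 (1 and 2), −0.0016 for IGF1R with OmoMYC (1), 0.066 for PDGFRB with OmoMYC (3), and, between the constructs (3), −0.0078 for FGFR1, 0.017 for FGFR3 and −0.013 for PDGFRB. The causes were not tested.

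The 10 ATAC-Seq sites gained with SNF5 were 1 with the same number of top peaks per sample, and 13 to 17 without 1 replicate, where fewer samples must have a peak. OmoMYC gained 0 to 1. The mean difference in peaks with OmoMYC was 0.667 with the same number of top peaks, and −8.67 to 3.33 without 1 sample. Within 5 kb of a start, 1 member (IGF1R) had a MYC peak. Sparse promoter-proximal counts limit those tests, with under 40 reads per library for MET, EGFR and PDGFRA. Without the SNF5 library of replicate 2, only 6 members met the promoter-proximal count filter.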
